A study of Rattus norvegicus with 12 samples.

Results

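miR-140 is made from the hairpin Mir140, and both of its mature arms, rno-miR-140-5p and rno-miR-140-3p, were followed across 12 small RNA libraries of aorta. They were taken by name, 2 of 641 listed mature rat miRNAs (the rat prefix rno- is left out from here on). Both arms passed the filter for testing, 1 rpm (1 read in 1000000) or more in at least 6 libraries, as did 303 of the 641. All libraries came from female rats of the SHR strain, the spontaneously hypertensive rat, so the controls carry the hypertensive background too. One group of 6 samples had the treatment label EWH, in a study entitled for peptides derived from egg white and their effect on blood pressure, and the other group of 6 samples received saline (control). The labels do not state age, dose, duration of treatment or whether each sample is a separate animal, so a p-value here speaks only of how these samples vary, and that variation may be technical. The arms were selected on their rpm levels and arm ratio in these same libraries, with the EWH against control contrast in view, and the 3p levels of the groups were already known not to overlap. Levels and arm ratios between the groups are therefore given as a description, with no p-value.

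A miRNA hairpin is cut by Drosha and Dicer into a short duplex, and either strand can be loaded into an Argonaute protein, where the seed (bases 2 to 8) guides it to messenger RNAs. In mammals the miR-140 hairpin lies within the gene of the ubiquitin ligase WWP2 and is best known from cartilage, where the chondrocyte factor SOX9 drives its expression; mice without it have shortened, dysmorphic skeletons. In vascular work, miR-140-5p has been studied in pulmonary arterial hypertension, with the ubiquitin ligase SMURF1 as a target. MiR-140-3p has been studied in human smooth muscle of the airway, with CD38 as a target.

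RefSeq's table for the rat assembly GRCr8 places Mir140 on the plus strand of chromosome 19, overlapping Wwp2 and no other miRNA hairpin, while the data were processed with rn6. The mature sequences are shown because the arms carry different seeds, marked in capitals 5′ to 3′,.
miR-140-5p: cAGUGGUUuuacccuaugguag
miR-140-3p: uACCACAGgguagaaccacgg
The hairpin is shown to place the arms, which are in capitals.
Mir140: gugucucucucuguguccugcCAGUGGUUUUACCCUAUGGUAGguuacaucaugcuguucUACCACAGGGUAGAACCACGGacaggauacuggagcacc
The arms span bases 22 to 43 and 61 to 81 of the 99-base hairpin, with 17 bases of loop side between them, and 19 bases of the 5p arm pair with the 3p arm in the predicted minimum free energy fold. Of the 641 listed miRNAs, 581 matched a RefSeq mature sequence. None of them shared bases 2 to 8, or bases 2 to 7, with either arm. The nearest listed sequence was 8 edits (substitutions, insertions or deletions) away from miR-140-3p, that of miR-203b-3p, and 9 edits away from miR-140-5p. No near-identical listed miRNA among the 581 was thus found that could have shared their reads.

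The libraries rested on 23887799 to 24772944 reads, of which 76.4% to 80.6% fell in listed miRNAs. The smooth muscle miRNA miR-143-3p was the most abundant, at 383398 ± 36932 rpm in EWH and 395202 ± 31339 rpm in control (SD, n = 6 each). MiR-145-5p, from the same smooth muscle cluster, read 1006 ± 211 rpm in EWH and 1138 ± 282 rpm in control (SD, n = 6 each). EWH 3 and EWH 4 stood apart from the other 10 libraries when log2 profiles were reduced to their leading principal component (46.3% of variance), with scores of 11.97 and 16.2. The other EWH libraries scored −4.12 to 4.94 and the controls −7.94 to −0.58. EWH 5 (4.94) and EWH 6 (2.14) thus also lay above each control, so this component partly follows the groups. The 30 pairs of libraries of the same group differed by more than counting error (chi-square divided by its degrees of freedom, 119 to 3184), and each library counted as its own sample.

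Both arms were well expressed, and the 5p arm was the more abundant in each of the 12 libraries. MiR-140-5p averaged 955 rpm over all libraries and ranked 35 of 641 by mean level, and miR-140-3p averaged 532 rpm and ranked 48. The rank of miR-140-5p stayed between 33 and 38 in the single libraries, and that of miR-140-3p ran from 47 to 63 in EWH and from 39 to 47 in control. Reads behind a value numbered 18234 to 29319 for the 5p arm and 8083 to 20527 for the 3p arm, so that counting error was 0.698% to 1.11% of a 3p level, far below the spread between libraries of a group.

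In rpm, miR-140-3p was lower in EWH than in control, with no overlap between the groups. It had a lowest level of 329, a median of 455 and a highest of 507 rpm in EWH libraries, against 547, 589 and 857 rpm in control libraries. EWH 3 and EWH 4 (389 rpm) were the lowest of all, and the highest EWH library, EWH 1, still lay under the lowest control, control 3. The means were 432 ± 62.9 rpm in EWH and 632 ± 115 rpm in control (SD, n = 6 each), 31.7% lower in EWH. The log2 difference on the log2(rpm + 1) scale was −0.55 (SE 0.13, limma), where the median of all 303 tested miRNAs was −0.06. Control 2 was the highest control by a wide margin, and without it the difference was −0.45 (SE 0.11). Without EWH 3 and EWH 4, a choice made after seeing the data, it was −0.42 (SE 0.13), with the remaining 4 EWH libraries at 453 to 507 rpm, still under each control. The lack of overlap depends on the scaling: 6 of 6 EWH libraries lay below each control in rpm, 5 after quantile normalization, 4 under median-of-ratios scaling and 2 when scaled to 5 common reference miRNAs.

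MiR-140-5p differed less, and its groups overlapped. Its lowest, median and highest levels were 736, 857 and 1008 rpm in EWH libraries, against 929, 1017 and 1211 rpm in control libraries. Here 4 EWH libraries lay below each control, whereas EWH 1 and EWH 5 (1006 rpm) lay within the control range. The means were 876 ± 114 rpm in EWH and 1035 ± 109 rpm in control (SD, n = 6 each), 15.4% lower in EWH. The log2 difference was −0.24 (SE 0.10, limma), and −0.19 (SE 0.12) without EWH 3 and EWH 4. When the values were scaled to the mean log2 level of 5 common reference miRNAs it was 0.033 (SE 0.17), and that of the 3p arm was −0.27 (SE 0.20). Relative to each of these 5 singly, the 5p difference was above 0 only for the low miR-484, at 0.57 (SE 0.29). After quantile normalization the 5p difference was −0.08, which is 0.045 above the median of all tested. The 5p difference itself thus changed sign only when scaled to the 5 reference miRNAs together or to miR-484 singly. Its sign relative to the median of all tested changed after quantile normalization. In bulk tissue, fewer cells that make a miRNA and less of it per cell cannot be told apart.

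**Figure D1:**
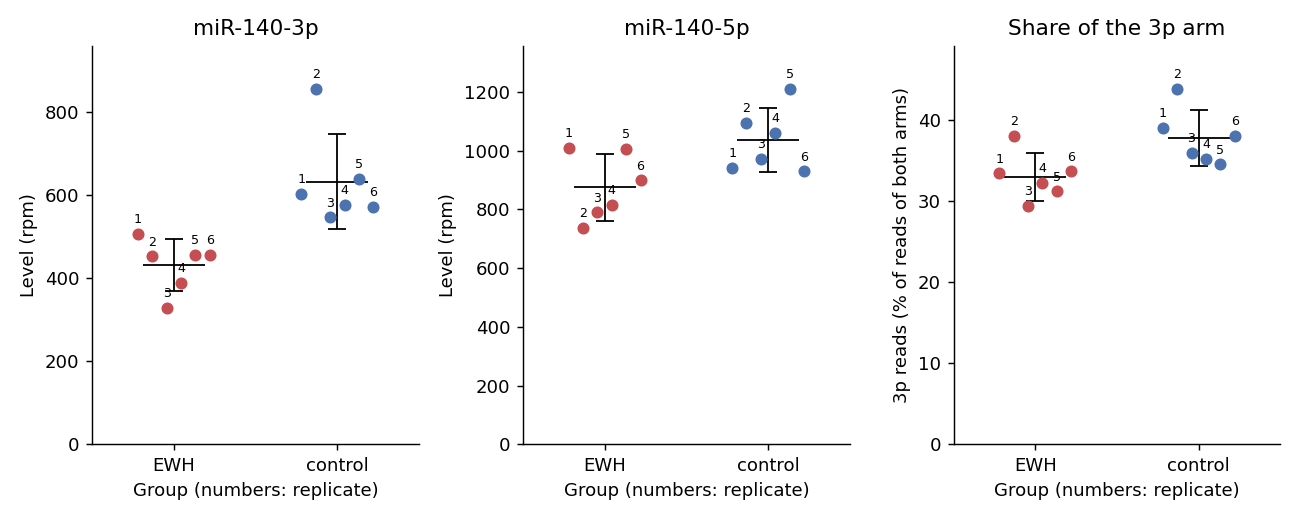
Level of each arm in rpm, and the 3p arm's share of the reads of both arms in percent, in EWH (red) and control (blue) libraries; points are libraries with their replicate number, and the black cross bar and whiskers are the mean and SD (n = 6 each). The 6 EWH libraries lie between 329 and 507 rpm for miR-140-3p, under the control range of 547 to 857 rpm, while the 5p levels and the shares overlap.

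Against the table as a whole, limma with Benjamini-Hochberg adjustment called none of the 303 tested miRNAs at an adjusted p under 0.05 (0%), with 70 at an unadjusted limma p under 0.05. Count tests on the recovered whole reads gave more calls, 40 (13.2%) by edgeR with its quasi-likelihood fit and 63 by DESeq2, both Benjamini-Hochberg adjusted. Groups did not overlap for 5 of the 303 (1.65%), miR-140-3p among them, and for 4 of these, or 1.32%, EWH lay below control. Since that contrast was known when the arms were chosen, nothing is read from this share. Mean log2 levels were lower in EWH for 182 of the 303 (60.1%). Of the tested miRNAs, 18 had a lower log2 difference than miR-140-3p and 70 a lower one than miR-140-5p. Among the 183 tested miRNAs that averaged at least 10 rpm these numbers were 10 and 42.

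**Figure D2:**
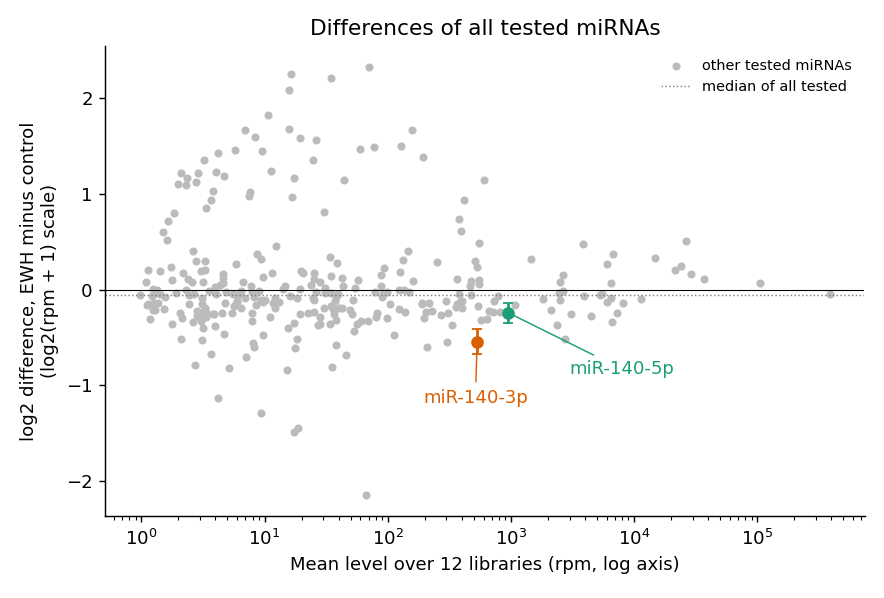
The log2 difference, EWH minus control, of each of 303 tested miRNAs (grey) against its mean level in rpm on a log axis, with the miR-140 arms in colour and whiskers of 1 SE; the dotted line is the median of all tested, −0.06. MiR-140-3p lies at −0.55, at the lower edge for its level: each miRNA with a lower difference averages fewer rpm. MiR-140-5p lies at −0.24, within the cloud of the other miRNAs.

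The arms did not keep a fixed proportion to each other. The 3p arm held a lowest share of 29.4%, a median of 32.9% and a highest of 38.1% of the hairpin's reads in EWH libraries, against 34.6%, 37.0% and 43.9% in control libraries. In 5 EWH libraries the share was below each control, and EWH 2 lay within the control range, so the groups overlapped. The lowest and highest shares were those of EWH 3 (95% Wilson interval 28.9% to 29.9%) and control 2 (43.5% to 44.4%), intervals that cover counting error only. The mean share was 33.0% ± 2.93 in EWH and 37.8% ± 3.46 in control (SD, n = 6 each). The 5p arm was thus 2.05 ± 0.26 times the 3p arm in EWH and 1.66 ± 0.23 times in control (SD, n = 6 each). As log2((3p + 1)/(5p + 1)) the ratio averaged −1.02 ± 0.19 in EWH and −0.72 ± 0.21 in control (SD, n = 6 each), a difference of −0.30 (SE 0.13, limma). Both arms are read in the same library, so a scaling by library total cancels in this ratio. Without control 2 the difference was −0.23 (SE 0.12), without EWH 2 it was −0.37 (SE 0.13), and without EWH 3 and EWH 4 it was −0.23 (SE 0.15).

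**Figure D3:**
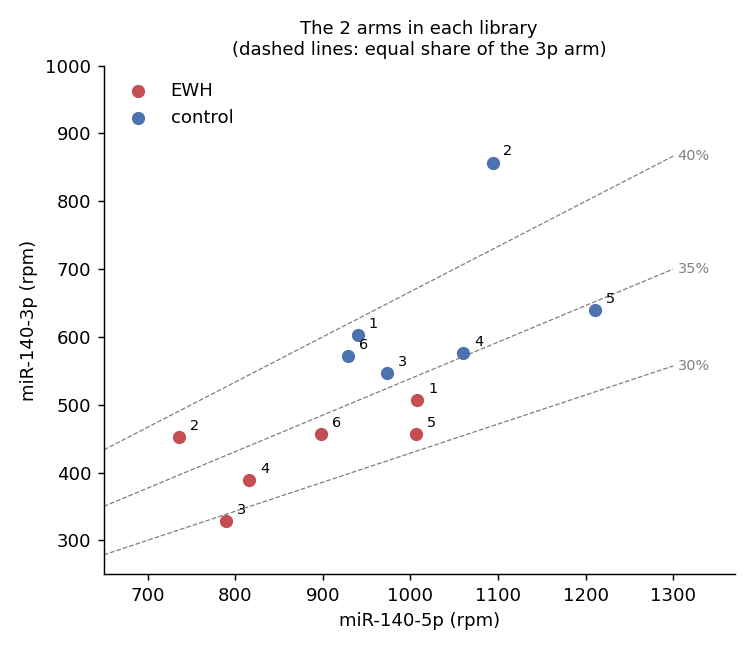
MiR-140-3p against miR-140-5p in rpm in each EWH (red) and control (blue) library, numbered by replicate; dashed lines join points where the 3p arm holds the same percent of the reads of both arms. The axes do not start at 0. EWH 3 lies lowest at a share of 29.4% and control 2 highest at 43.9%, and EWH 2, at 38.1%, lies away from the other EWH libraries.

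Set beside other hairpins, the arms of miR-140 were close in level. For 67 hairpins both arms were tested, with the 5p arm higher on average in 43 and the 3p arm higher in 24. The median distance between arms was 2.24 log2 units, against 0.87 for miR-140, and 15 hairpins had arms closer than that. The difference of the ratio between the groups had a median size of 0.17 log2 units over the 67 hairpins, and 16 had a larger one than miR-140. With the sign kept, 11 hairpins had a lower difference than miR-140. No arm ratio had groups that did not overlap (0 of 67, 0%). Only 9 hairpins averaged at least 100 rpm in both arms, a limit chosen after the values were seen. Among them the log2 difference was 0.32 (SE 0.12) for miR-30a, opposite in sign to that of miR-140 and of about the same size. It was 0.20 (SE 0.13) for miR-30e, and 0.22 for the smooth muscle miRNAs miR-145 (SE 0.25) and miR-143 (SE 0.20). Below 0, besides miR-140, were let-7d at −0.18 (SE 0.15), miR-199a at −0.09 (SE 0.12), miR-423 at −0.09 (SE 0.22) and miR-22 at −0.08 (SE 0.10). The within-group SD of the miR-140 ratio was 0.20 log2 units, where the median hairpin had 0.25.

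**Figure D4:**
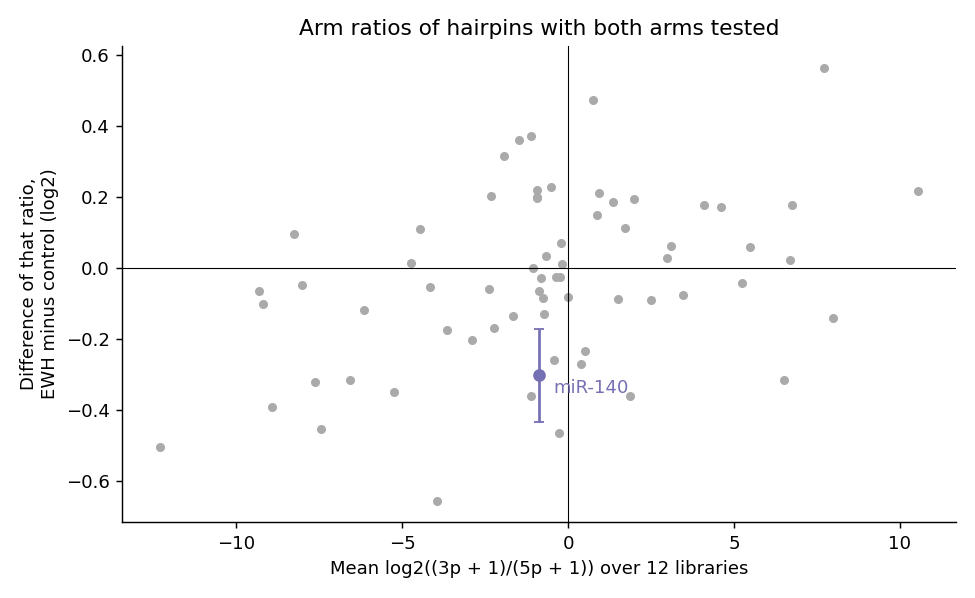
Difference of the arm ratio, EWH minus control, against the mean ratio over 12 libraries, both as log2((3p + 1)/(5p + 1)), for 67 hairpins with both arms tested (grey) and miR-140 (violet, whiskers of 1 SE). MiR-140 lies at a mean ratio of −0.87 and a difference of −0.30, within the range of the other hairpins.

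The levels of the 2 arms within a group are set side by side as a description, since the levels per library were used to choose the arms. Pearson's r of the log2 values was 0.58 and Spearman's rho 0.83 over the 6 EWH libraries. Over the 6 control libraries r was 0.48 and rho 0.66. Leaving out the 2 libraries farthest from the 3p median gave r of 0.56 in EWH (without EWH 3 and 4) and −0.15 in control (without control 2 and 5), whereas leaving out either control alone gave 0.68 or 0.67. With 4 to 6 points that share library totals, no relation is read from these values.

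Both arms varied less between libraries of a group than the median tested miRNA. The within-group SD of the log2 level was 0.17 for miR-140-5p and 0.23 for miR-140-3p, against a median of 0.33 over the 303 tested miRNAs. A smaller SD was found for 33 of the 303 compared with miR-140-5p and for 77 compared with miR-140-3p. Many of the 303 are low, and low miRNAs can vary more. Among the 183 that averaged at least 10 rpm the median SD was 0.30, with 22 below miR-140-5p and 53 below miR-140-3p. As a share of the mean, the SD of miR-140-3p was 14.6% in EWH and 18.1% in control, and that of miR-140-5p was 13.1% in EWH and 10.5% in control.

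Likeness to other miRNAs was measured as Pearson's r over the 12 libraries after the group means of log2(rpm + 1) were subtracted, among 182 other miRNAs that averaged at least 10 rpm. The points share library totals, and the values are descriptive. Closest to miR-140-3p were miR-30a-5p (r = 0.78), miR-24-2-5p (r = 0.67), its paralog miR-24-1-5p (r = 0.63), with which it may share reads, and miR-21-5p (r = 0.62), known from injured vessels. MiR-140-5p came only 10th for the 3p arm, at r = 0.53. Closest to miR-140-5p were let-7e-3p (r = 0.76), both arms of the mesenchymal miR-199a (r = 0.69 for 5p and 0.68 for 3p) and miR-185-5p (r = 0.65), with miR-140-3p 15th. The libraries' own deviations show the pattern: miR-140-3p and miR-30a-5p were lowest within EWH in EWH 3, by −0.38 and −0.30 log2 units from the group mean, and highest within control in control 2, by 0.46 and 0.22. With the group means left in, the lists were led by miR-30a-5p for miR-140-3p (r = 0.84) and by miR-199a-5p for miR-140-5p (r = 0.79), and miR-186-5p was second in both (r = 0.80 and 0.77).

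**Figure D5:**
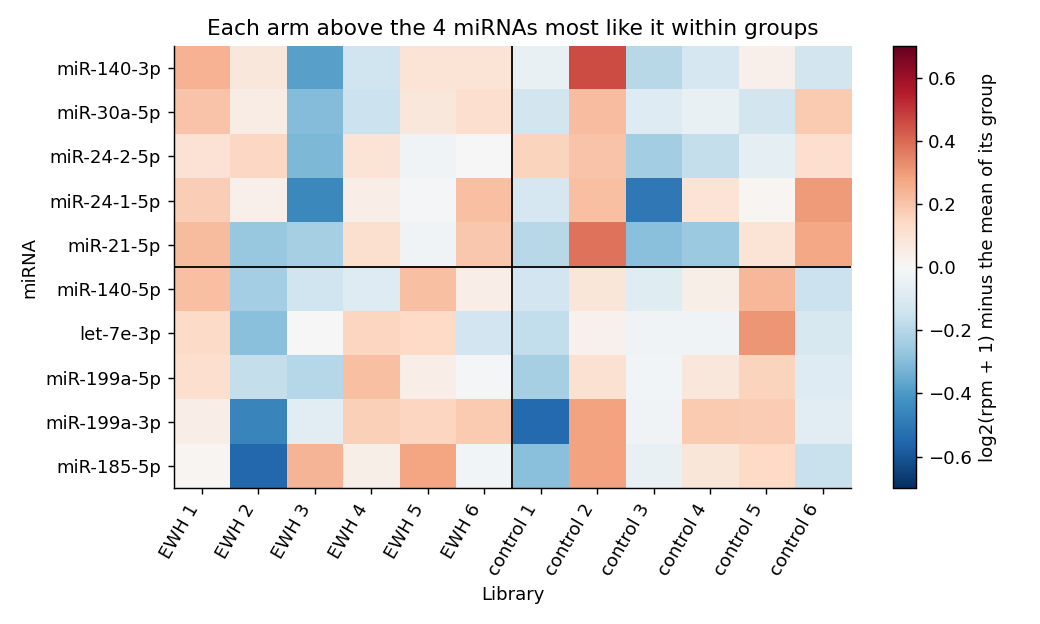
Deviation of log2(rpm + 1) from the mean of its group in 6 EWH (left) and 6 control (right) libraries, for each miR-140 arm and the 4 miRNAs most like it by within-group Pearson's r; red is above and blue below the group mean. EWH 3 is low (−0.38) and control 2 high (0.46) in miR-140-3p, whereas EWH 2 is the lowest EWH library in miR-140-5p (−0.24).

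The other miRNAs of the cartilage list were split in direction. None of its 7 tested members was called by limma (0 of 303 over the table). Of the 5 besides miR-140, 3 had higher and 2 lower mean log2 levels in EWH, with a median log2 difference of 0.00 against −0.06 over all tested. Those counted as higher include miR-214-3p at 0.00 (SE 0.19) and miR-455-5p at 0.05 (SE 0.13). MiR-455-3p, from a hairpin in a collagen gene and known from chondrocytes, read 102 ± 35.7 rpm in EWH and 83.1 ± 12.3 rpm in control (SD, n = 6 each). MiR-199a-3p read 2781 ± 431 rpm in EWH and 3345 ± 629 rpm in control, and miR-199a-5p 506 ± 55.7 rpm in EWH and 569 ± 55.6 rpm in control (SD, n = 6 each). Both arms of miR-675, made from the H19 transcript that cartilage also expresses, were listed at 0 in all control libraries and averaged at most 0.0202 rpm in EWH, under the value of 1 read.

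Of miRNAs studied in pulmonary hypertension, 14 were tested besides miR-140, and limma called none (0 of 303 over the table). In mean log2 level, 3 of the 14 were higher and 11 lower in EWH, with a median log2 difference of −0.14. Over all 301 tested miRNAs besides miR-140, 180 had lower mean log2 levels in EWH and the median was −0.06. Among the most abundant of these, miR-27a-3p read 6623 ± 745 rpm in EWH and 7879 ± 1076 rpm in control, and miR-21-5p 5804 ± 836 rpm in EWH and 7380 ± 1503 rpm in control (SD, n = 6 each). The endothelial miR-126a-3p read 5214 ± 993 rpm in EWH and 5855 ± 3259 rpm in control (SD, n = 6 each).

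The 5 common reference miRNAs, used in other studies to scale miRNA levels, all had lower means in EWH, with a median log2 difference of −0.21 and no limma call. The widest difference was −0.82 for miR-484, a low one here at 3.31 ± 0.89 rpm in EWH and 7.08 ± 3.87 rpm in control (SD, n = 6 each). Relative to miR-191a-5p, the most abundant of them, the log2 level of miR-140-3p was −2.47 ± 0.44 in EWH and −2.04 ± 0.23 in control, a difference of −0.43 (SE 0.20). Relative to miR-186-5p, the difference was −0.32 (SE 0.12) for miR-140-3p and −0.02 (SE 0.08) for miR-140-5p. Relative to miR-484 it was 0.27 (SE 0.30) for miR-140-3p and 0.57 (SE 0.29) for miR-140-5p, opposite in sign to those against the other 4. The groups overlapped in miR-140-3p relative to each of the 5, with 4 EWH libraries below each control relative to miR-191a-5p, 3 relative to miR-425-5p, 5 relative to miR-186-5p and 0 relative to miR-423-5p or miR-484.

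Markers of other cell types varied between libraries. For each type given here the ranges of the 2 groups overlapped, though some medians lay well apart. The 4 neuron and glia markers summed to between 86.3 and 700 rpm in EWH, highest in EWH 4, and between 57.5 and 136 rpm in control. The medians of that sum were 279 rpm in EWH and 81.5 rpm in control. Its 2 tested members were both higher in EWH, miR-9a-5p by 1.67 log2 units (SE 0.46) and miR-338-3p by 1.47 (SE 0.47). The 7 epithelial markers summed to between 75.1 and 195 rpm in EWH and between 59.8 and 711 rpm in control, highest in control 6. Their medians were 121 rpm in EWH and 317 rpm in control, and of the 6 tested, 1 had a higher and 5 a lower mean log2 level in EWH. The 4 leukocyte markers summed to between 101 and 181 rpm in EWH and between 84.4 and 228 rpm in control, and the 2 listed erythrocyte markers to between 24.1 and 84.0 rpm in EWH and between 17.2 and 90.0 rpm in control. The 6 listed skeletal and cardiac muscle markers summed to between 713 and 1438 rpm in EWH and between 428 and 1367 rpm in control. Their directions were mixed: of the 5 tested, 2 had higher and 3 lower mean log2 levels in EWH. MiR-1-3p read 807 ± 273 rpm in EWH and 394 ± 238 rpm in control (SD, n = 6 each). MiR-499-5p read 157 ± 29.1 rpm in EWH and 262 ± 133 rpm in control (SD, n = 6 each). Cardiac miR-208a-3p was at 0 in each control, with a median of 0 and at most 0.0415 rpm, 1 read, in EWH. The hepatocyte marker miR-122-5p read 125 to 801 rpm in EWH and 37.4 to 1006 rpm in control. The 2 endothelial markers summed to between 4264 and 6913 rpm in EWH and between 3290 and 12305 rpm in control. No marker was at 0 in all 12 libraries. EWH 3 and EWH 4, the lowest in miR-140-3p, were the same libraries that stood apart in the whole profiles, and the part of other cell types in the miR-140 differences was not tested.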

How the data were processed

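Small RNA of 15 to 35 nt from Trizol-extracted total RNA was sequenced, per the labels' protocols; the build was rn6, per the submitters' processing notes, and the labels name no aligner, counter or annotation. The authors deposited reads-per-million (RPM) values, in a table named for TPM; each is a whole number of reads over a total of its library. Dividing by the smallest step gave whole reads for 100% of values (tolerance 0.01 read), and 1 read was worth 0.0404 to 0.0419 rpm. Reads carry no molecular identifiers, so intervals cover counting error only. No column was left over.

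MiRNAs at 1 rpm or more in 6 or more libraries were fitted as log2(rpm + 1) with limma 3.58.1 (trend; R 4.3.3), Benjamini-Hochberg adjusted at 0.05. A fold change on this scale understates that of low miRNAs. EdgeR 4.0.16 and DESeq2 1.42.0 were run on recovered reads, and procedures were tested on simulated counts. The hairpin was folded with ViennaRNA 2.7.2. The correlation of the arms within groups was planned as a test, but its p-values are not given because the levels per library chose the arms. The members and lists were chosen with earlier results of these data known. The rule for named miRNAs was the arms, the 4 miRNAs most like each, seed sharers (none were found), and up to 5 tested members of each of 3 lists by level; not all are printed, and miR-484 with its values, and the hairpins beside miR-140, were named after values were seen. Alternatives were filters, pseudocounts of 0.1 and 5, 4 other scalings, the replicate block and left-out libraries. Figures were drawn with matplotlib 3.10.9.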

Additional observations from a re-analysis of the deposited data

Results flagged for a closer look

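Control 2 read 857 rpm in miR-140-3p, apart from the other controls by 0.701 of the group's range, past Dixon's 95% critical value. Among 6 groups of values checked this was the only one past that value; chance alone puts about 1 in 20 groups past it. The 5p level of the same library, 1094 rpm, lay within those of the other controls.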

How the results depend on the processing

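The miR-140-3p difference kept its sign under each of 24 alternatives, from −0.63 to −0.42 in 23 of them, and was −0.27 when scaled to the 5 common reference miRNAs. The filters and the replicate block are among the 24 but leave the group means as they are, so they could not move a difference. The reference scaling turned the miR-140-5p difference to 0.033. In the other 23 alternatives the 5p difference ran from −0.33 to −0.08. Under the reference scaling the median of all tested miRNAs was 0.18, against −0.06 as deposited. Relative to that median the differences were −0.45 for 3p and −0.14 for 5p, against −0.49 and −0.19 as deposited. After quantile normalization they were −0.42 for 3p and 0.045 for 5p, so the 5p difference relative to the median changed sign there. The 3p groups overlapped under median-of-ratios, quantile and reference scaling. The arm ratio difference ran from −0.46 to −0.23 in 22 alternatives. Scalings by 1 factor per library cancel in this ratio, so they too could hardly move it. Leaving out 1 library at a time gave −0.59 to −0.45 for 3p, −0.29 to −0.20 for 5p and −0.37 to −0.23 for the ratio.

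Limma called 0 as reported, 8 after quantile normalization, 43 under the reference scaling, 1 without EWH 3 and 4, and 0 to 24 with 1 library left out (24 without EWH 2, 1 without EWH 4); edgeR called 40 and DESeq2 63. Groups did not overlap for 5 miRNAs as reported, 10 under median-of-ratios scaling, 8 after quantile normalization, 9 when rpm was taken over listed reads other than miR-143-3p, 11 without EWH 3 and 4, and 5 to 12 with 1 library left out (12 without EWH 2, 10 without EWH 4, 8 without control 2 or 3). The EWH arm correlation was 0.88 under median-of-ratios scaling; with 1 library left out r ran from 0.41 to 0.91 (highest without EWH 2) in EWH (rho 0.70 to 1) and from 0.42 to 0.68 in control (rho 0.50 to 0.80). The causes were not tested.

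Deviations of same-numbered EWH and control libraries correlated at −0.50 to 0.31, against −0.49 to 0.56 for libraries of different numbers. Whether the numbers mark a pairing of the samples cannot be told from these values. With a replicate block limma called 0. The differences stayed at −0.55 (3p), −0.24 (5p) and −0.30 (ratio), which a block balanced over the groups cannot change.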
